A study of Mus musculus with 3 samples.

Results

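The tumour necrosis factor (TNF) superfamily was followed through 3 bulk RNA-seq libraries of mouse primary chondrocytes, the cells that make cartilage. Its members here are the rows of the count table whose symbol begins with Tnfrsf (receptors) or Tnfsf (ligands) followed by a number. That rule took 33 of the 44788 rows, 20 receptor rows and 13 ligand rows, and it used no measured value. Among the ligand rows, Tnfsf12Tnfsf13 is a read-through transcript of neighbouring genes and Tnfsf13os is an antisense RNA. Founding members named in other ways, such as Tnf, Fas and Ltbr, fall outside the rule and are given with the rest of the pathway.

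Cells were taken from cartilage of the knee joint of C57BL/6 mice. In the 2 cKO libraries they had the genotype Col2a1-CreERT2;Kdm6bf/f, in which the chondrocyte promoter Col2a1 drives a recombinase that 4-hydroxytamoxifen switches on, and in the 1 control library they had Kdm6bf/f without the recombinase. All 3 carried the floxed alleles of Kdm6b, which encodes a histone H3 lysine 27 demethylase, and all 3 received 1 µM 4-hydroxytamoxifen for 48 h in F12 medium with 10% fetal bovine serum. The recombinase, the deletion and the culture that each library came from cannot be told apart, and age, sex and pooling are not given in the labels.

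Totals lay between 12489738 and 12636471 counts. Kdm6b gave 1049 and 948 counts in the cKO replicates and 1289 in the control, a log2 fold change of -0.39 ± 0.14 (standard error, SE) that did not pass (edgeR adjusted p = 0.138); gene-level counts include exons outside the floxed part. Xist, the RNA of the inactive X chromosome, had 10081 counts in cKO replicate 2 and 2 and 1 in the others, so the cKO libraries do not come from the same animal. Of 15 chondrocyte markers, 13 fell in edgeR and the other 2 did not pass, beside 1.9% of all tested genes that fell. In DESeq2 10 of the 15 fell, beside 0.541% of genes. With edgeR prior degrees of freedom fixed at 5, 6 fell, beside 0.27% of genes, and at 3, 2 fell, beside 0.0258%. The summed level of the 15 was 18293 and 16897 CPM (counts per 1000000 of the TMM-scaled library) in cKO against 30601 CPM in the control. In bulk samples fewer cells of a type and less RNA per cell cannot be told apart, and the part of this shift in the results below was not tested. Of 20 leukocyte and macrophage markers, 5 were tested and 0 passed in edgeR. Both with an unadjusted p under 0.05 were higher in cKO: Csf1r had 33 and 28 counts in the cKO replicates and 8 in the control (3.71-fold, edgeR adjusted p = 0.0835), and Cd68 had 59, 57 and 32 (1.78-fold, edgeR adjusted p = 0.293). Their summed level was 47.2 and 48.0 CPM in the cKO replicates against 40.6 CPM in the control, most of it H2-Ab1. The defining markers Cd3e, Itgam and Tyrobp had 0 counts in every library, and Ptprc had 1, 1 and 0. Of 9 tested fibroblast and synovial markers, 2 rose and 0 fell in edgeR, beside 3.01% and 1.9% of all tested genes. An unadjusted p under 0.05 was reached by 5 of them, beside 15.7% of genes. Thy1 rose 3.13-fold (623, 259 and 139 counts, edgeR adjusted p = 0.00336) and Prg4 1.48-fold (2885, 2159 and 1680 counts, edgeR adjusted p = 0.0489). Neither passed in DESeq2, and the summed level of that list was 13090 and 11701 CPM in the cKO replicates against 13004 CPM in the control. Of 6 tested osteoblast markers 1 fell in edgeR, Ibsp, beside 1.9% of all tested genes, and 0 fell in DESeq2. Of 3 endothelial and 4 nerve and glia markers tested 0 passed in edgeR (1 of each had an unadjusted p under 0.05). The part of these markers in the results below was not tested.

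TNF superfamily ligands are mostly membrane proteins that work as trimers and can be shed from the cell. Their receptors either carry a death domain, which recruits adaptors that lead to NF-kB or to caspases, or bind TRAF adaptors directly, and several are decoys that hold a ligand without passing a signal on. In cartilage and bone the family is best known for TNF, which drives matrix loss in inflamed joints, and for RANKL, RANK and osteoprotegerin, which set how many osteoclasts form.

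Of the family, 15 members were too low to test in these cells, and a few receptors carried most of its reads. Of the 33 members, 18 had enough counts to be tested (13 receptors and 5 ligand rows), 11 of which had a mean of at least 5 CPM. Of the other 15, 3 had 0 counts in every library, 5 had at most 2 counts in any library and 7 had a few more. Osteoprotegerin alone held 62.4% and 64.5% of all member counts in cKO and 71.0% in the control.

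Of the 18 tested members, 4 rose in cKO and 0 fell, against 3.01% of the 15529 tested genes that rose and 1.9% that fell (edgeR quasi-likelihood F test, Benjamini-Hochberg adjustment over all tested genes, threshold 0.05). Those that rose were the receptor genes Tnfrsf12a, Tnfrsf1b and Tnfrsf23 and the ligand gene Tnfsf10. Of the 18, 6 had an unadjusted p under 0.05, where 15.7% of all tested genes did. Both cKO libraries lay above the control for 15 members and both below for 2, while 36.6% and 37.4% of all tested genes did so. The median log2 fold change was 0.38 over the 18 members, 0.43 over the receptors and 0.34 over the ligand rows, beside 0.00 over all tested genes. Tnfsf10, Tnfrsf26 and Tnfrsf11a, whose value is the median over the receptors, passed the count minimum only through the cKO libraries, so these summaries are descriptions of the members that could be tested.

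Only the difference between the cKO libraries informs the spread, with 1 residual degree of freedom, and the single control library is taken to vary as they do. The 4 genes also passed in limma-voom, which called 2.99% of genes higher. DESeq2 called 0 members higher (1.46% of genes; 4 members and 6.06% of genes had an unadjusted p under 0.05), and so did edgeR with its prior degrees of freedom fixed at 5 (0.972% of genes) or 3 (0.534%). An unadjusted p under 0.05 was reached by 6 members and 10.7% of genes at 5, by 5 members and 8.15% of genes at 3, and by 7 members and 7.6% of genes without a filter, where 0 passed. The labels do not say whether the cKO libraries are separate cultures. In the reported edgeR fit, the spread of a gene combines its own gap between this pair with the gaps over all tested genes. The former had 1 residual degree of freedom and the latter a median of 19.87 prior degrees of freedom. No p-value rests on replication beyond this pair, and part of the gap may be technical.

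**Figure D1:**
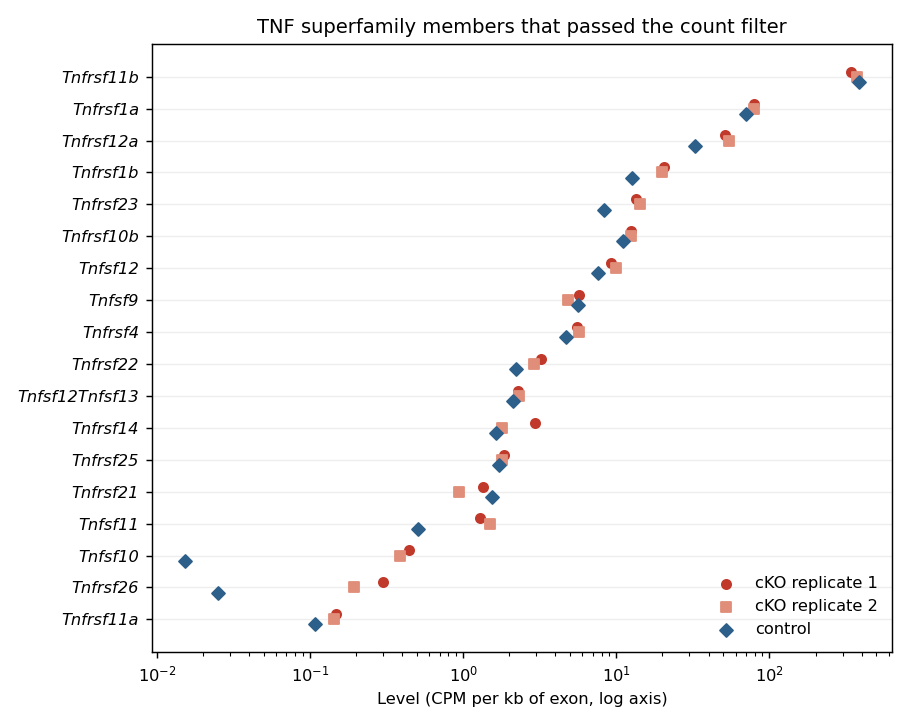
Level of each of the 18 tested members in each library, in CPM per kb of exon on a log axis, ordered by the mean over the libraries. Tnfrsf11b stands highest at 339 to 383 CPM per kb. The control lies to the left of both cKO libraries for 15 of the 18 members, all but Tnfrsf11b, Tnfrsf21 and Tnfsf9.

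Per length of exon, the order of levels was led by receptors. Tnfrsf11b averaged 365 CPM per kb over the 3 libraries, Tnfrsf1a 76.2, Tnfrsf12a 46.0 and Tnfrsf1b 17.6. Tnfrsf23 and Tnfrsf10b both averaged 12.0 CPM per kb, and their ranges over the libraries overlapped (8.32 to 14.4 and 11.1 to 12.5). The most abundant ligand rows were Tnfsf12 at 8.94 and Tnfsf9 at 5.40 CPM per kb, the latter overlapping the receptor Tnfrsf4 at 5.29. Tnfrsf22, Tnfsf12Tnfsf13, Tnfrsf14, Tnfrsf25, Tnfrsf21 and Tnfsf11 averaged between 1.10 and 2.78 CPM per kb, and Tnfsf10, Tnfrsf26 and Tnfrsf11a lay between 0.133 and 0.281.

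The cKO libraries differed little from each other for these genes. Over the 11 members with a mean of at least 5 CPM, the median size of the log2 difference between the cKO libraries was 0.10, beside 0.14 over 11339 genes at that level. For 10 of the 11, the exact 95% binomial interval of the ratio between them contained 1. Osteoprotegerin, the member with the most counts and so a narrow interval, was the exception, at 1.10-fold (1.07 to 1.12) higher in cKO replicate 2. The largest difference was that of Tnfrsf21, at a size of 0.52 on the log2 scale. With 69 and 49 counts, its wider interval (0.469 to 1.01) contained 1. These intervals cover counting error only.

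The receptors for TNF itself were both expressed. Tnfrsf1a, the death domain receptor TNFR1 found on most cells (chromosome 6, 125349362 to 125362484, plus strand, GRCm38), gave 2569 and 2615 counts in the cKO replicates and 2252 in the control. Its levels were 206.3 and 204.3 CPM against 181.5 CPM, a log2 fold change of 0.18 ± 0.13 (SE) that did not pass (edgeR adjusted p = 0.596). Tnfrsf1b, the TRAF-binding receptor TNFR2 (chromosome 4, 145213463 to 145246870, minus strand), gave 967 and 971 counts in the cKO replicates and 595 in the control. Both cKO libraries stood well above the control. The gene rose 1.60-fold, from 48.0 CPM to 76.8 ± 1.3 CPM (SD, n = 2), with a log2 fold change of 0.68 ± 0.15 (SE, edgeR adjusted p = 0.00627; 0.100 in DESeq2). Per length, Tnfrsf1a exceeded Tnfrsf1b 3.91-fold and 3.97-fold in cKO and 5.58-fold in the control. Transcripts of the ligand, Tnf, were not detected: 0 counts in each library allow a level of up to 0.234 to 0.242 CPM at 3 counts per library.

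Tnfrsf1b holds a match to the interferon-stimulated response element, the DNA letters bound by interferon regulatory factors, directly before its start. The 250 bases before the RefSeq start are shown, chr4:145246871-145247120 on GRCm38.p6, minus strand, with matches to the searched motifs in capitals.
Tnfrsf1b: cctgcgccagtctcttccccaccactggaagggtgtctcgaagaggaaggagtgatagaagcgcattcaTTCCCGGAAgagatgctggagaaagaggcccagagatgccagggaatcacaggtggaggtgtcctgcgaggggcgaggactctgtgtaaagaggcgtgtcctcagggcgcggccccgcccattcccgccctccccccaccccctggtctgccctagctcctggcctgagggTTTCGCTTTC
The first run of capitals is a match to the STAT-binding GAS letters TTCNNNGAA and the last is GAAA, 2 further letters and GAAA, read on the other strand.

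The receptor Fn14 rose, and its ligand TWEAK, the ligand row with the highest level per length, did not pass the test. Tnfrsf12a encodes Fn14, a small receptor known to be induced by injury and growth factors (chromosome 17, 23675445 to 23677468, minus strand, GRCm38). It gave 1226 and 1341 counts in the cKO replicates and 784 in the control, and both cKO libraries lay above the control by more than they differed from each other. It rose 1.61-fold, from 63.2 CPM to 101.6 ± 4.5 CPM (SD, n = 2), with a log2 fold change of 0.69 ± 0.14 (SE, edgeR adjusted p = 0.00447; 0.0553 in DESeq2). Tnfsf12, the TWEAK gene, gave 174 and 194 counts in the cKO replicates and 143 in the control, a log2 fold change of 0.34 ± 0.23 that did not pass (edgeR adjusted p = 0.538). Per length, Tnfrsf12a exceeded Tnfsf12 5.53-fold and 5.42-fold in cKO and 4.30-fold in the control.

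Reads of the TWEAK and APRIL genes cannot be fully separated. Tnfsf12 (chromosome 11, 69686250 to 69695849, minus strand, GRCm38) shares 48.3% of its exon bases with the read-through gene, which GENCODE names Tnfsfm13, and Tnfsf13 shares 60.0% with that gene or with Tnfsf13os. The row Tnfsf12Tnfsf13 gave 63 and 66 counts in the cKO replicates and 59 in the control, with a log2 fold change of 0.10 ± 0.33 (SE, edgeR adjusted p = 0.935). Tnfsf13, which encodes the B cell survival factor APRIL, had 8, 9 and 9 counts, and Tnfsf13os had 3, 4 and 5. The control stood close to the cKO libraries in each of these last 3 rows, and Tnfsf13 and Tnfsf13os were too low to test.

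The TRAIL group held the largest fold change of the family, at a very low level. Tnfsf10 encodes TRAIL, a ligand that triggers death receptors and that interferons are known to induce in many cell types (chromosome 3, 27317028 to 27342427, plus strand, GRCm38). It gave 29 and 26 counts in the cKO replicates and 1 in the control, or 2.33 and 2.03 CPM against 0.0806 CPM. The ratio of normalised counts was 27.0 with an exact 95% binomial interval of 4.65 to 1086 that covers counting error only. The control lay under the floor of 3 counts, so the size of the change is not known, and the gene passed the count minimum only through the cKO libraries. In edgeR the gene rose by 4.59 ± 0.98 on the log2 scale (SE, adjusted p = 0.00507), and in DESeq2 it did not pass (adjusted p = 0.216). The 250 bases before its RefSeq start, chr3:27316827-27317076 on GRCm38.p6, plus strand, are shown because this was the largest change. They held no exact match to the 4 searched motifs, and near matches were not searched for.
Tnfsf10: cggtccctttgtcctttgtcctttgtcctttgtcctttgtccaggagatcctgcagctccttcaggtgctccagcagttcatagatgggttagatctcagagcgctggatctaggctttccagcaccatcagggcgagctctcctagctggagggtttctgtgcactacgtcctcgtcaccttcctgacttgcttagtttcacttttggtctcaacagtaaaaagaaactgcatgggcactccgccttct

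The mouse death receptor for TRAIL, Tnfrsf10b (chromosome 14, 69767472 to 69784411, plus strand), gave 852 and 866 counts in the cKO replicates and 752 in the control. Its log2 fold change of 0.17 ± 0.14 (SE) did not pass (edgeR adjusted p = 0.657), although both cKO libraries lay above the control. The decoy receptors of TRAIL, Tnfrsf22 and Tnfrsf23, which lack a working death domain, lie side by side on chromosome 7. Tnfrsf23 (143665809 to 143685872, minus strand) gave 663 and 728 counts in the cKO replicates and 409 in the control. It rose 1.67-fold, from 33.0 CPM to 55.1 ± 2.6 CPM (SD, n = 2), with a log2 fold change of 0.74 ± 0.16 (SE, edgeR adjusted p = 0.00545; 0.112 in DESeq2). Tnfrsf22 (143634806 to 143649661, minus strand) gave 170 and 157 counts in the cKO replicates and 115 in the control, a log2 fold change of 0.48 ± 0.24 that did not pass (edgeR adjusted p = 0.356).

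The decoy genes are near copies, so the split of reads between them is uncertain. Of the distinct 50-base words in GENCODE M21 transcripts, 17.3% of those in Tnfrsf22 also occur in Tnfrsf23 and 18.0% the other way, and their longest coding sequences are 89.0% identical over 525 aligned bases. The first unbroken stretch of 120 aligned coding bases is shown, bases 77 to 196 of the Tnfrsf22 coding sequence and 47 to 166 of that of Tnfrsf23, with the 18 mismatched bases in capitals.
Tnfrsf22: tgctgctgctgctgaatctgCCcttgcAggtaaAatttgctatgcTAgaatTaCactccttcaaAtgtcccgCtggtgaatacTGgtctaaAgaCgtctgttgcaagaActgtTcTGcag
Tnfrsf23: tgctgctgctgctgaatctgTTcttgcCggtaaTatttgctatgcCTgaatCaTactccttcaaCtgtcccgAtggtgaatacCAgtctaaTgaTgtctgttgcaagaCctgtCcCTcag
Summed over the pair, which does not depend on the split, 833 and 885 counts stood in the cKO replicates against 524 in the control. The ratio was 1.61, with an exact 95% binomial interval of 1.46 to 1.78 that covers counting error only. The third gene of the cluster, Tnfrsf26, an orphan receptor with no 50-base word in common with the pair, gave 12 and 8 counts in the cKO replicates and 1 in the control. That is a ratio of 9.83 with an interval of 1.57 to 407, and it did not pass (edgeR adjusted p = 0.207).

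**Figure D2:**
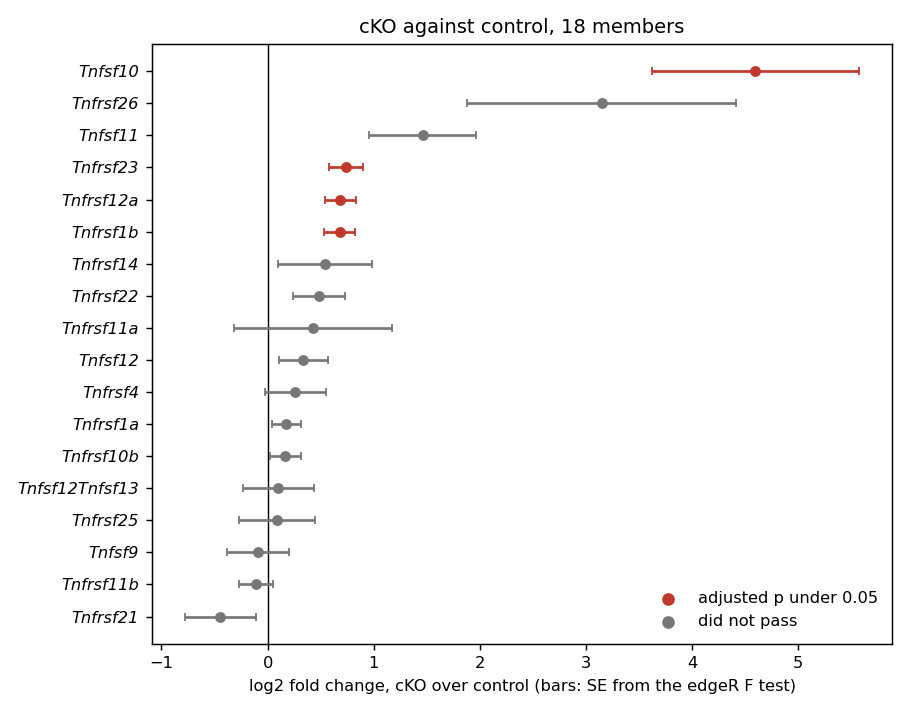
Log2 fold change of cKO over control for the 18 tested members, with the SE from the edgeR F test as bars and members with an adjusted p under 0.05 in red. The called receptors lie between 0.68 and 0.74 with short bars, while Tnfsf10 at 4.59 and Tnfrsf26 at 3.15 have long bars, with 1 control count of each.

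In the RANKL group, the decoy receptor was abundant and the ligand and its signalling receptor were scarce. Tnfrsf11b encodes osteoprotegerin, the secreted decoy that keeps RANKL from osteoclast precursors (chromosome 15, 54250619 to 54278484, minus strand, GRCm38). It gave 11900 and 13408 counts in the cKO replicates and 13393 in the control, or 955.4 and 1047.6 CPM against 1079.5 CPM. Its log2 fold change was -0.11 ± 0.16 (SE, edgeR adjusted p = 0.832), and cKO replicate 2 lay nearer to the control than to the other cKO library. Tnfsf11, the RANKL gene (chromosome 14, 78277445 to 78308043, minus strand), gave 36 and 43 counts in the cKO replicates and 14 in the control.

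Both cKO libraries were above the control for Tnfsf11, by a ratio of 2.77 (exact 95% binomial interval 1.56 to 5.30, counting error only). The log2 fold change of 1.46 ± 0.50 (SE) did not pass over all genes (edgeR adjusted p = 0.117), although its unadjusted p was 0.00844. Per length, Tnfrsf11b exceeded Tnfsf11 262-fold and 247-fold in cKO and 759-fold in the control, a difference that rests on the 14 control counts of Tnfsf11. Tnfrsf11a, the gene of the receptor RANK that osteoclast precursors carry, had 11, 11 and 8 counts (edgeR adjusted p = 0.860). The osteoclast markers Dcstamp, Ocstamp, Calcr and Atp6v0d2 had 0 counts in every library, and Oscar and Mmp9 had at most 9. The other 4 were tested and 0 passed in edgeR (0 had an unadjusted p under 0.05): Acp5 had 46, 54 and 49 counts, Ctsk 1041, 1041 and 1018, Nfatc1 845, 987 and 799, and Itgb3 179, 148 and 114.

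Receptors and ligands best known from lymphocytes were low, and none of the tested ones passed. Tnfrsf4, which encodes the T cell costimulator OX40, gave 94 and 99 counts in the cKO replicates and 79 in the control (log2 0.26 ± 0.29 SE, edgeR adjusted p = 0.749), and its ligand gene Tnfsf4 had 1, 0 and 0 counts. Tnfsf9, the gene of the ligand 4-1BBL, had 92, 80 and 90 counts, with the control between the cKO libraries, while its receptor gene Tnfrsf9 had 1, 2 and 0. In each of these pairs 1 partner was expressed and the other had at most 2 counts.

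Tnfrsf14, the gene of the receptor HVEM, gave 53 and 33 counts in the cKO replicates and 29 in the control. Its cKO libraries differed from each other beyond counting error, at a ratio of 0.606 (exact 95% binomial interval 0.380 to 0.953), and the log2 fold change of 0.54 ± 0.44 (SE) did not pass (edgeR adjusted p = 0.629). Its ligand gene Tnfsf14 had 0 counts in every library. Tnfrsf25, which encodes the death receptor DR3, had 52, 52 and 48 counts (log2 0.09 ± 0.36 SE). Tnfsf15, the gene of its ligand TL1A, gave 8 and 9 counts in the cKO replicates and 2 in the control, a ratio of 4.18 with an interval of 0.991 to 37.3 that contains 1.

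Among the remaining receptors, Tnfrsf21, the gene of the death receptor DR6, gave 69 and 49 counts in the cKO replicates and 79 in the control. It was the lowest of the tested members, at a log2 fold change of -0.44 ± 0.33 (SE, edgeR adjusted p = 0.587). Tnfrsf18, the gene of GITR, gave 6 and 7 counts in the cKO replicates and 1 in the control, a ratio of 6.39 (interval 0.959 to 271). Tnfrsf18 shares 27.2% of its exon bases with another gene, Gm16008. Tnfrsf19, the gene of the receptor TROY, gave 6 and 3 counts in the cKO replicates and 0 in the control, or at least 1.47-fold higher against a floor of 3 counts. The GITR ligand gene Tnfsf18 had 3, 5 and 3 counts.

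The genes of the B cell survival system were at the limit of detection. Tnfsf13b, which encodes BAFF, gave 1 and 2 counts in the cKO replicates and 4 in the control, and the receptor genes Tnfrsf13b, Tnfrsf13c and Tnfrsf17 had 1, 1 and 0 counts in all. Tnfrsf8, the gene of CD30, had 1 count in all and its ligand gene Tnfsf8 had 0. No difference in these genes was detectable at this depth.

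The start regions were searched for exact matches to 4 motifs. The set of RefSeq start regions used here held 28 start sites for 24 of the 33 members. It held none for Tnfrsf10b, Tnfrsf11b, Tnfrsf22, Tnfrsf26, Tnfsf4, Tnfsf9, Tnfsf12, Tnfsf12Tnfsf13 and Tnfsf13os, which include some of the most abundant members. In the 250 bases before the start, the interferon-stimulated response element (GAAA, any 2 letters, GAAA), searched on both strands, stood in 4 of the 28 member windows (14.3%), beside 2.98% of all 32851 windows. The AP-1 letters TGANTCA stood in 5 member windows (17.9%, beside 6.75% of all windows), the GAS letters TTCNNNGAA in 5 (17.9%, beside 7.02%) and the kappaB motif in 2 (7.14%, beside 3.9%). Each share was larger in the member windows, which are few, and the differences were not tested. Overlap between motifs was allowed. The response element matches are shown in windows of 30 bases, with the matched letters in capitals, so that they can be compared.
Tnfrsf1b: cctagctcctggcctgagggTTTCGCTTTC
Tnfrsf14: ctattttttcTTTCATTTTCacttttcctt
Tnfsf13b: atcttacaaaaactGAAAGTGAAAtgcgga
Tnfrsf17: aaataggtggTTTCTGTTTCaggaatagtt
These lie at chr4:145246871-145246900 and chr4:154928122-154928151 on the minus strand and at chr8:10006603-10006632 and chr16:11313698-11313727 on the plus strand (GRCm38.p6). Of these genes, Tnfrsf1b rose, Tnfrsf14 did not pass, and Tnfsf13b and Tnfrsf17 were too low to test.

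Genes of the superfamily under other symbols were mixed. Of 8 such receptors, 5 were tested and 1 rose, beside 3.01% of all tested genes. An unadjusted p under 0.05 was reached by 2, beside 15.7% of genes: Eda2r, which rose, and Edar, which was lower. Edar gave 13 and 5 counts in the cKO replicates and 24 in the control (log2 -1.43 ± 0.62 SE, edgeR adjusted p = 0.254). Eda2r, the X-linked receptor of ectodysplasin A2, rose 1.83-fold, with 268 and 243 counts in the cKO replicates against 137 in the control (log2 0.87 ± 0.22 SE, edgeR adjusted p = 0.0192), and it did not pass in DESeq2 or with prior degrees of freedom of 5 or 3. Ltbr, the lymphotoxin beta receptor, and Fas, the receptor of Fas ligand, had log2 fold changes of 0.12 ± 0.13 and -0.01 ± 0.25 and did not pass (edgeR adjusted p = 0.757 and 0.993). Of 7 ligands under other symbols, only Eda reached the count minimum, with 125, 92 and 89 counts and a log2 fold change of 0.26 ± 0.29. The Cd40lg and Cd40 genes had 0 counts in every library, and Lta, Ltb, Fasl and Cd70 had at most 2.

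Of 22 tested adaptors and death signalling genes downstream of the receptors, 4 rose and 0 fell, beside 3.01% and 1.9% of all tested genes (median log2 0.11 beside 0.00). An unadjusted p under 0.05 was reached by 7, beside 15.7% of genes. Of the 7, only Cradd was lower in cKO, with 51 and 53 counts in the cKO replicates and 85 in the control (log2 -0.73 ± 0.32 SE, edgeR adjusted p = 0.253). In DESeq2 2 of the 4, Mlkl and Daxx, passed; with prior degrees of freedom of 5 only Mlkl did, and with 3 none. Mlkl, the pore-forming effector of necroptosis, gave 267 and 263 counts in the cKO replicates and 50 in the control and rose by 2.38 ± 0.26 on the log2 scale (SE). Its upstream kinase gene Ripk3 rose by 0.58 ± 0.16, the death receptor partner gene Daxx by 0.95 ± 0.16 and the caspase-8 substrate gene Bid by 0.84 ± 0.23. Casp8, Fadd, Tradd and Ripk1, which form the receptor complex itself, had log2 fold changes of -0.02, -0.06, 0.24 and 0.23 and did not pass in edgeR.

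Of 22 tested ubiquitin and kinase genes on the way to NF-kB, 0 passed in edgeR (median 0.10). An unadjusted p under 0.05 was reached by 3, beside 15.7% of all tested genes. The one with the smallest p, Rnf31, which encodes a subunit of the linear ubiquitin ligase, had a log2 fold change of 0.49 ± 0.16 (SE, edgeR adjusted p = 0.100). Of 25 tested NF-kB subunits and targets, 7 rose and 0 fell, beside 3.01% and 1.9% of all tested genes (median 0.23). Ccl2 and Ccl7, chemokines for monocytes, rose by 2.59 ± 0.27 and 1.88 ± 0.25, and Ptgs2, Icam1, Cxcl5, Csf1 and Tnfaip2 rose by between 0.54 and 0.78. In DESeq2 4 of the 7 passed, Ccl2, Ccl7, Csf1 and Ptgs2; with prior degrees of freedom of 5 only Ccl2 did, and with 3 none. The other 18 genes of the list did not pass, among them the collagenase gene Mmp13 at -0.21 ± 0.15 and Mmp3 at -0.05 ± 0.27. Of 9 sheddases and their partners, 1 rose, beside 3.01% of all tested genes. It was Erap1, an aminopeptidase known for trimming peptides for MHC class I, which rose by 1.27 ± 0.16. Adam17, which sheds TNF and its receptors, had a log2 fold change of 0.08 ± 0.14.

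**Figure D3:**
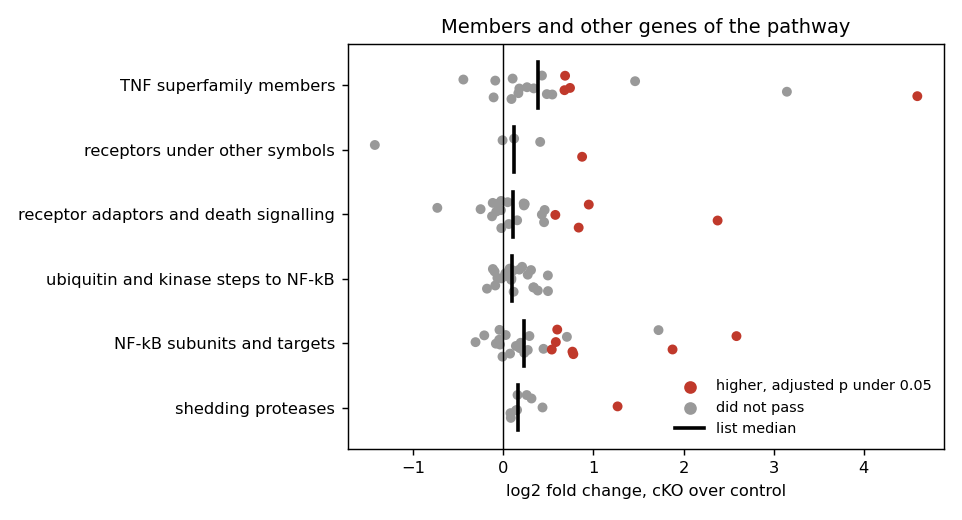
Log2 fold change of cKO over control for each tested member and each tested gene of the pathway lists named on the vertical axis. A black bar marks the list median, and genes with an adjusted p under 0.05 are in red. The ligands under other symbols, of which only Eda was tested, are not drawn. No point is marked lower, and the medians lie between 0.10 and 0.38.

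**Figure D4:**
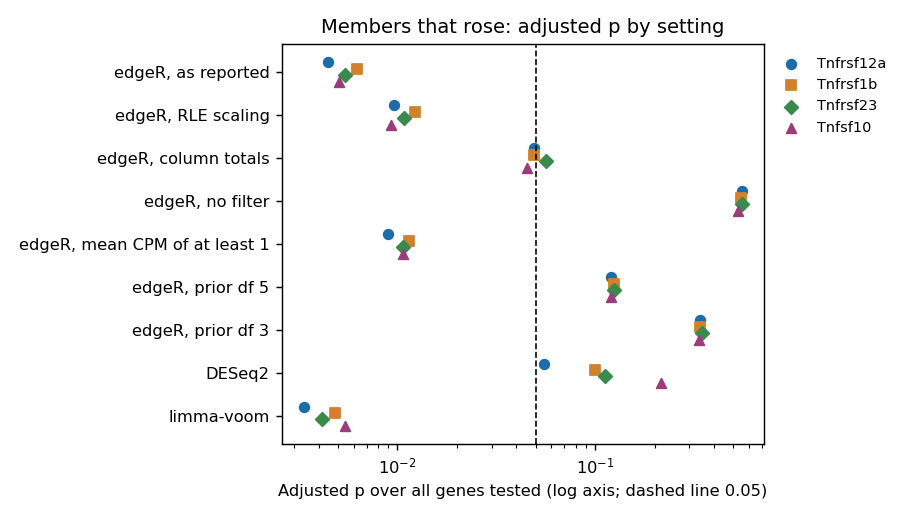
Adjusted p over all genes tested for the 4 members that rose, under the reported fit and the alternatives named on the vertical axis, on a log axis with a dashed line at 0.05. The points lie left of the line in limma-voom and in edgeR with RLE scaling or a minimum mean of 1 CPM, around it with column totals, and right of it without a filter, with fixed prior degrees of freedom and in DESeq2.

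The log2 fold changes of the 4 members that rose varied little between settings, while the calls did not hold in all of them. Over all alternatives and with either cKO library left out, the log2 fold change lay between 0.64 and 0.73 for Tnfrsf12a, 0.66 and 0.69 for Tnfrsf1b, 0.69 and 0.79 for Tnfrsf23 and 4.19 and 4.76 for Tnfsf10. The adjusted p ranged from 0.00204 to 0.555 for Tnfrsf12a, 0.00265 to 0.548 for Tnfrsf1b, 0.00299 to 0.555 for Tnfrsf23 and 0.00198 to 0.529 for Tnfsf10. By a rule without a test, at least 2-fold in each cKO library at a mean of at least 5 CPM, 0 of 11 members were higher and 0 lower, where 1.61% and 0.494% of 11339 genes were. With a minimum mean of 1 CPM, 2 of 16 members were at least 2-fold higher, beside 2.1% of 14354 genes: Tnfsf11 and Tnfsf10, the latter with 1 control count.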

How the data were processed

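RNA of primary chondrocytes was depleted of ribosomal RNA and made into Ion Proton libraries, per the labels' protocols. The authors deposited unnormalised read counts in 1 table, with gene symbols as rows and libraries as columns. The submitters' processing notes list GRCm38 and GRCh37 without a role; the aligner, counter, annotation and strand setting: not given in the sources used here. Reads of overlapping genes therefore cannot be told apart.

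From the deposited counts, edgeR 4.0.16 in R 4.3.3 (filterByExpr, TMM, quasi-likelihood F test with bias-adjusted deviances) compared 2 cKO libraries with 1 control over 15529 genes, and SEs are the absolute log2 fold change over the root of F. The median prior degrees of freedom were 19.87. The fit was checked on simulated data, where this estimate varied widely between simulated datasets. The bias-adjusted deviances replaced the legacy deviances that this version uses by default after both had been seen, to match an earlier analysis of these data. Alternatives were DESeq2 1.42.0, limma-voom (limma 3.58.1), other scaling, filters and prior degrees of freedom. Positions and exon lengths are from GENCODE M21 (GRCm38), where all 33 members matched, Tnfsf12Tnfsf13 through its RefSeq synonym. Promoter sequences are from RefSeq on GRCm38.p6.

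Members, gene lists and tests were chosen with earlier results of these data known. Every member is accounted for. Other pathway genes were named where they passed or had the smallest p of their list. Casp8, Fadd, Tradd, Ripk1, Cradd, Ltbr, Fas, Edar, Mmp13, Mmp3 and Adam17 and the marker genes named were added after their values were seen.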

Additional observations from a re-analysis of the deposited data

How the results depend on the processing

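The number of members called higher was 4 as reported and fell to 0 in DESeq2 (4 of 18 with an unadjusted p under 0.05, beside 6.06% of genes), 0 without a filter (7 of 30, beside 7.6%), 0 with prior degrees of freedom fixed at 5 (6 of 18, beside 10.7%) and 0 at 3 (5 of 18, beside 8.15%); the cause was not tested. Without a filter edgeR called 0 of all 24051 genes, so that setting says little about the members. With column totals in place of TMM the number was 3, beside 1.46% of genes, since Tnfrsf23 did not pass (edgeR adjusted p = 0.0565). In 20 edgeR fits with legacy deviances, chosen after seeing the data, 16 called 4 members higher (1.88% to 3.12% of genes), among them the version's default with TMM. The other 4 used column totals without a robust quasi-dispersion and called 0 (1.22% to 1.24% of genes; 6 of 18 with an unadjusted p under 0.05), with adjusted p from 0.0535 to 0.0723 for the 4 members. No member was called lower in any of these fits. The rule of at least 2-fold in each cKO library gave 0 in either direction without cKO replicate 1 and 0 without cKO replicate 2, and 2 higher with a mean CPM of at least 1. For single members, 159 of 176 values under the other alternatives kept their side of the threshold or, where 1 cKO library was left out and no test was possible, moved by no more than the SD between the cKO libraries, and 17 lost the call; with legacy deviances 344 of 360 kept their side and 16 lost the call. Most of these values belong to members that were not called as reported and so had no call to lose. All the lost calls were among the 4 members that rose. Of 28 alternatives with a p-value, 20 of them with legacy deviances, 20 called Tnfrsf12a, 20 Tnfrsf1b, 20 Tnfsf10 and 19 Tnfrsf23. Many legacy fits repeat each other. With TMM, the default called 484 genes higher (3.12%) and 312 lower (2.01%). Adding robust dispersion or library sizes from before the filter gave the same numbers. The tallies over these fits are therefore not separate support for a call. No direction of a called member reversed. Leaving out 1 cKO library leaves no residual degrees of freedom, so those values carry no test, and the control cannot be left out. No paired analysis was possible because the control has no replicate number and the groups share fewer than 2 numbers. At this depth, no difference was detectable in members under 3 counts in every library, and a fold against a control under 3 counts, as for Tnfsf10, has no known size.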
